A study of Homo sapiens with 10 samples.

Results

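The genes described here are 9 regulators grouped as oncofetal, although some of them are also common in adult cells. They are the chromatin proteins HMGA1, HMGA2, HMGB1, HMGB2 and HMGB3, the RNA-binding proteins IGF2BP1, IGF2BP2 and IGF2BP3, and LIN28B, which blocks the maturation of let-7 miRNAs. They were taken from the 52402 symbols of the count files by name, not by a threshold on measured values, and with earlier results of these data known. BEAS2B, an immortalized line of human bronchial epithelium, was transfected with Lipofectamine and harvested after 48 h for mRNA-sequencing. The 5 groups, with 2 libraries each, were a scrambled control (miRcontrol), a mimic of miR-3124-5p (miR3124_mimic), a mimic of miR-200b-3p (miR200b_mimic), an inhibitor of miR-92b whose arm the labels do not give (miR92b_inhibitor), and all 3 agents together (the 3-miRNA mixed group). Single agents were used at 50 nM, and the amount of each agent in the mixed group is not given in the sources used here. All groups are the same cell line, and nothing says whether the libraries of a group came from separate transfections, so p-values measure the spread between these libraries, which may be technical.

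A miRNA guides the silencing complex to messages, mostly through pairing of its seed, bases 2 to 8, with the 3′UTR, and paired messages are degraded or poorly translated. The let-7 family rises as tissues mature and keeps HMGA2, the IGF2BP genes and LIN28B low in most adult cells, while LIN28B in turn lowers let-7. HMGA proteins bend AT-rich DNA, HMGB proteins bend DNA without sequence preference, and IGF2BP proteins bind messages and alter their stability and translation. Many tumours re-express some of these genes, and the miR-200 family is best known for repressing ZEB1 and ZEB2, which hold down epithelial genes.

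The mature miRNAs are shown first because their seeds define the words sought in the members. The sequences are from RefSeq on GRCh38.p14, with the seed in capitals. Both arms of miR-92b are given because the arm of the inhibitor's target is not labelled.
miR-3124-5p (chr1:248826383-248826403, plus strand): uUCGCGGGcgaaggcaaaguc
miR-200b-3p (chr1:1167160-1167181, plus strand): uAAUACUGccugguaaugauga
miR-92b-5p (chr1:155195196-155195217, plus strand): aGGGACGGgacgcggugcagug
miR-92b-3p (chr1:155195237-155195258, plus strand): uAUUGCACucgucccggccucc
let-7a-5p (chr9:94175962-94175983, plus strand; other loci on chromosomes 11 and 22): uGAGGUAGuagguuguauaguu

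No 2 of these seeds are the same. Each seed's complementary word was sought on the transcript strand of the 3′UTR of the APPRIS principal transcript of each member, and of 12177 tested genes with such a 3′UTR (GENCODE 29, GRCh38). The words were CCCGCGA for miR-3124-5p, CAGTATT for miR-200b-3p, CCGTCCC for miR-92b-5p, GTGCAAT for miR-92b-3p and CTACCTC for let-7, and no word contains another. The let-7 word stood in 6 of the 9 members and in 10.1% of all the 3′UTRs searched. Several members were chosen as known let-7 targets, so this excess was partly fixed by the choice and is no finding. The miR-200b-3p word stood in 5 members, against 18% of all, and the miR-92b-3p word in 2, against 11.5%. Among those 5 is HMGB3, which the study names as a target of miR-200b-3p, so its word was not independent of the choice either. No member held the miR-3124-5p word, found in 0.599% of all, or the miR-92b-5p word, found in 3.75%. Members differ in 3′UTR length, from 385 bases in HMGB2, which held none of the words, to 6206 in IGF2BP1, so longer members had more room for a word.

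The sites printed are those of the 2 genes with the most let-7 words among the members measured, HMGA2 and IGF2BP1, and the miR-200b-3p site of HMGB3. All lie in 3′UTRs on the plus strand of GRCh38, and capitals mark the word complementary to the seed.
HMGA2 let-7 word at base 21 (chr12:65963298-65963320): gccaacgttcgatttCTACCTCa
HMGA2 let-7 word at base 1256 (chr12:65964533-65964555): ccccactactcaataCTACCTCt
HMGA2 let-7 word at base 1668 (chr12:65964945-65964967): ttgacttgcaaagacCTACCTCc
HMGA2 let-7 word at base 2521 (chr12:65965798-65965820): aatcaaaacacactaCTACCTCt
IGF2BP1 let-7 word at base 1632 (chr17:49051061-49051083): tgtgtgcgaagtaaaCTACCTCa
IGF2BP1 let-7 word at base 4269 (chr17:49053698-49053720): cagcagtgctagtaaCTACCTCa
IGF2BP1 let-7 word at base 4923 (chr17:49054352-49054374): gtataaatggattaaCTACCTCa
IGF2BP1 let-7 word at base 5568 (chr17:49054997-49055019): tcacttttgttttatCTACCTCt
HMGB3 miR-200b-3p word at base 837 (chrX:150988736-150988758): ttgaagttaaataaaCAGTATTa

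An A after the word, which strengthens pairing sites in general, followed 1 of the 4 words of HMGA2, 3 of the 4 of IGF2BP1 and the single word of HMGB3. Only 10 of the 12177 3′UTRs, 0.0821%, held at least 4 let-7 words, HMGA2 and IGF2BP1 among them. The miR-200b-3p word followed by A stood in 4.89% of the 3′UTRs. The words of HMGA2 depend on the transcript: its longest coding transcript has another 3′UTR of 7421 bases, with 0 let-7 words, 3 miR-200b-3p words and 1 miR-92b-3p word. The counts do not separate these transcripts. A word is a match of letters and not a measured site.

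**Figure D1:**
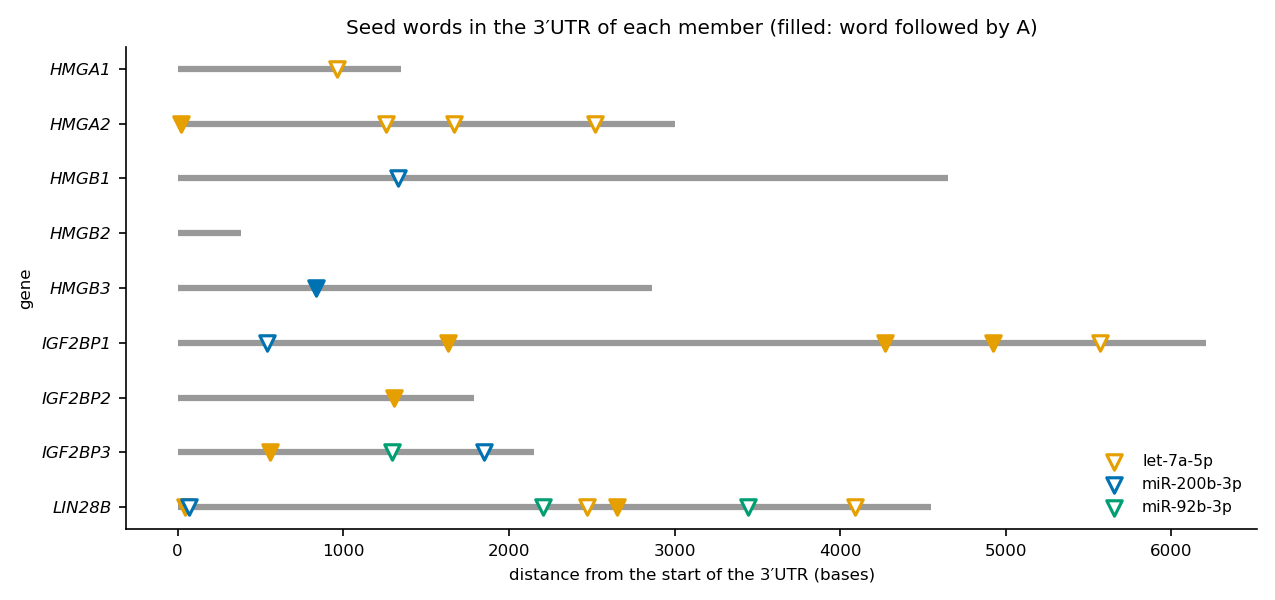
Seed words in the 3′UTR of the principal transcript of each member, with the distance from the start of the 3′UTR in bases on the x axis and the gene on the y axis. Grey bars are 3′UTRs, triangles are words coloured by miRNA, and filled triangles are followed by A. HMGA2, IGF2BP1 and LIN28B each hold 4 let-7 words, and HMGB2 holds no word.

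The libraries held 13587666 to 18503890 counts, and 14884 symbols passed the filter on low counts. As a check of the transfection, ZEB1 was at 63.3 and 62.9 normalized CPM ( counts scaled to library size) in miRcontrol, 25.9 and 25.6 in miR200b_mimic, and 29.7 and 28.5 in the mixed group. ZEB2 fell by 2.27 on the log2 scale in miR200b_mimic (edgeR adjusted p = 3.61e-23) and by 1.66 in the mixed group (adjusted p = 3.61e-20), and rose by 0.53 in miR3124_mimic. QKI, an RNA-binding protein, fell by 1.57 in miR200b_mimic. CDH1, the epithelial cadherin, was at 0.172 and 0.119 CPM in miRcontrol, at 10.9 and 9.03 in miR200b_mimic and at 2.54 and 1.94 in the mixed group. Smaller changes in the other groups were rises of ABCA1 (0.43) and SMAD2 (0.27) in miR3124_mimic and of ABCA1 (0.29) and ZEB2 (0.26) in miR92b_inhibitor, where FN1, fibronectin, fell by 0.43. FN1, ABCA1 and SMAD2 changed more in miR200b_mimic, at mean CPM of 1407, 27.2 and 102 against 3264, 15.4 and 152 in miRcontrol. Mean FN1 was 1990 in the mixed group and 2429 in miR92b_inhibitor. Of the 9 genes tested for this check, 6 were lower and 3 higher in miR200b_mimic, beside 19.1% and 21.4% of all genes. The study cites ZEB1, ZEB2, SMAD2, ABCA1, LATS2 and TRIM33 (TIF1γ) among reported miR-200b-3p targets. Of these ABCA1 and LATS2 were higher, LATS2 at a mean of 116 CPM against 95.5 in miRcontrol, and TRIM33 was lower, at 91.5 against 106.

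Cell type markers moved with the groups. Of 10 epithelial markers 8 exceeded 3 counts in some library, and their summed level was 2227 to 2273 CPM in miRcontrol, 2785 to 2794 in miR3124_mimic, 4202 to 4282 in miR200b_mimic, 2102 to 2192 in miR92b_inhibitor and 4091 to 4118 in the mixed group. Nearly all of it came from KRT7, KRT8 and KRT18, while the basal markers KRT5, TP63 and KRT14 were at or near 0. EPCAM, an epithelial adhesion protein, was at a mean of 0.289 CPM in miRcontrol, 10.2 in miR200b_mimic and 5.48 in the mixed group. KRT19 fell by 3.40 in miR3124_mimic, 0.68 in miR92b_inhibitor and 1.65 in the mixed group. In miR200b_mimic it rose, to a mean of 14.4 CPM against 8.20 in miRcontrol. KRT17 rose by 1.03 in miR3124_mimic and 1.16 in miR200b_mimic, KRT8 rose by 0.49 in miR3124_mimic, and KRT7 fell by 0.15 in miR92b_inhibitor. Of 7 epithelial markers tested, 3 were higher and 1 lower in miR3124_mimic, and 7 and 0 in miR200b_mimic. Counts were 0 and 2 in miR92b_inhibitor and 6 and 1 in the mixed group. The shares of all genes called are given with the member counts below.

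Of 8 fibroblast markers 6 exceeded 3 counts, with sums of 3726 to 3914 CPM in miRcontrol, 852 to 881 in miR3124_mimic, 3012 to 3032 in miR200b_mimic, 4247 to 4263 in miR92b_inhibitor and 2719 to 2808 in the mixed group. These sums were mostly VIM, the intermediate filament vimentin, and the other 2 tested markers did not follow it. In miR3124_mimic VIM fell by 2.23 while PDGFRB, a growth factor receptor, rose by 1.95 and COL1A1, a collagen, rose by 0.99. In miR200b_mimic COL1A1 rose by 1.62, PDGFRB fell by 1.33 and VIM fell by 0.35. In the mixed group COL1A1 and PDGFRB rose by 0.87 and 0.63 and VIM fell by 0.48, and in miR92b_inhibitor COL1A1 fell by 0.90 and VIM rose by 0.16. The immune, endothelial and neuroendocrine lists had 2 of 6, 3 of 4 and 1 of 7 markers over 3 counts, with sums of at most 12.8, 4.78 and 0.744 CPM. The immune sum was mostly CD14, which rose by 3.49 in miR3124_mimic and 0.76 in the mixed group and fell by 1.38 in miR200b_mimic, while PTPRC, the marker of all leukocytes, was at most 0.117 CPM. The part of these marker shifts in the results below was not tested. In such bulk libraries, fewer cells expressing a gene and less RNA per cell cannot be told apart.

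LIN28B (chr6:104936616-105083332, plus strand) had 0 counts in all 10 libraries. A count of 0 allows up to 3 counts, or 0.161 to 0.224 CPM depending on the library, an allowance for counting error alone. The other 8 members passed the filter in the fit with all groups, and at a mean of at least 95.8 CPM each they were well counted. Levels can be compared between genes only per length. In miRcontrol the order in RPKM (reads per kilobase of exon, scaled to library size) was HMGA1 at 414 ± 7.09 (SD, n = 2), HMGB2 at 90.8 ± 2.79, IGF2BP2 at 44.9 ± 0.878, HMGB1 at 44.5 ± 0.133, HMGB3 at 38.7 ± 1.65, IGF2BP3 at 11.9 ± 0.0861, IGF2BP1 at 9.05 ± 0.313 and HMGA2 at 7.40 ± 0.42. IGF2BP2 and HMGB1 did not differ beyond their spread. Their order, and that of IGF2BP1 and HMGA2, turned when the length of the longest coding transcript replaced the union of exons, with HMGA2 then at 14.1 ± 0.798 and IGF2BP1 at 9.96 ± 0.344. All 8 values moved beyond their SD with this change. The place of HMGA2 depends most on the length used: its union of exons has 15403 bases, its longest coding transcript 8094 and its principal transcript 4473. Levels over the principal transcripts were not computed.

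**Figure D2:**
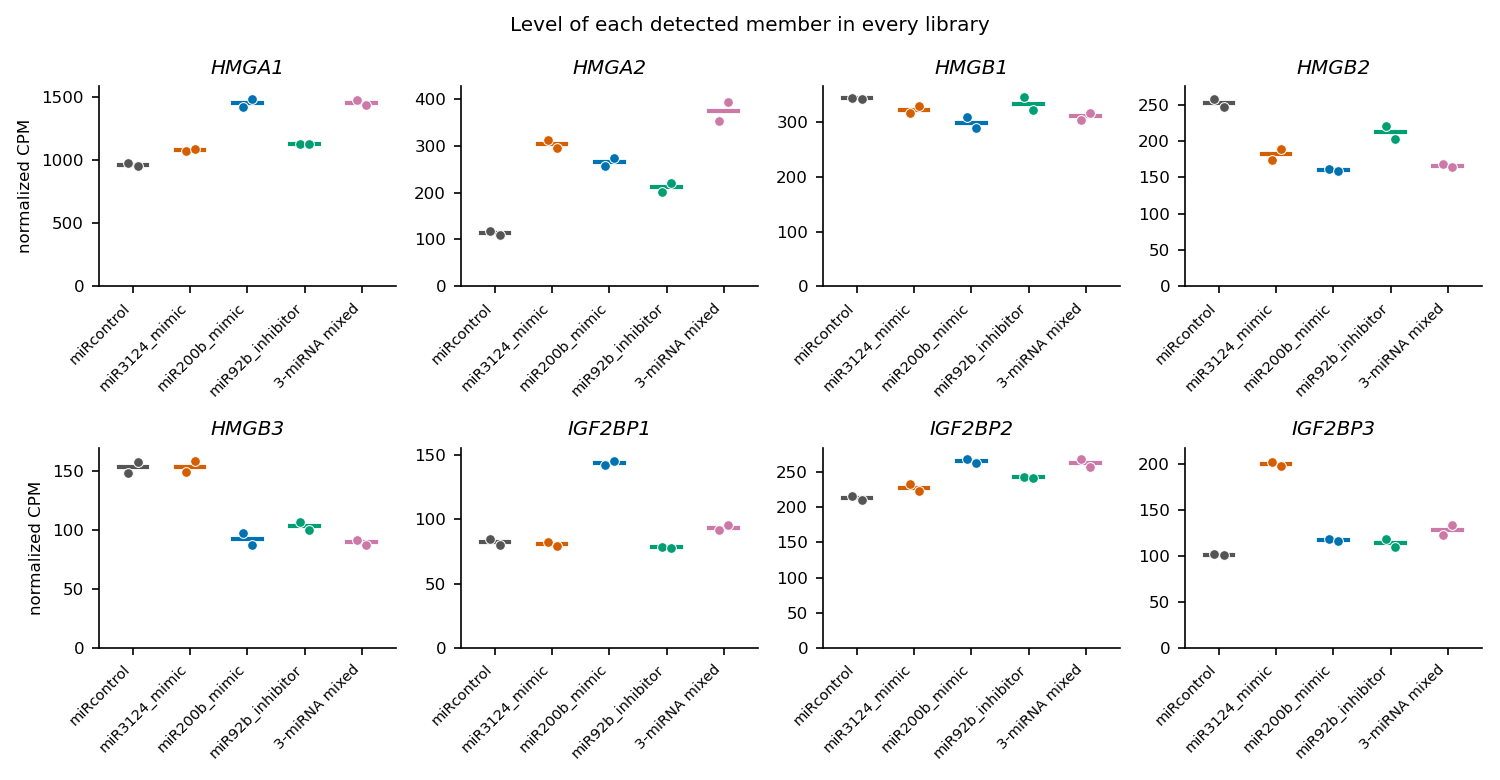
Normalized CPM (y axis, from 0) of the 8 detected members in every library of the 5 groups (x axis). Points are libraries and bars are means of 2. HMGA2 is lowest in both miRcontrol libraries, and HMGB3 is lower in miR200b_mimic, miR92b_inhibitor and the mixed group than in miRcontrol and miR3124_mimic.

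HMGA2 (chr12:65824131-65966295, plus strand), an architectural protein of embryonic chromatin, changed most among the members against miRcontrol in every other group. It stood at 118 and 109 CPM in miRcontrol. Single agents gave 313 and 296 (miR3124_mimic), 256 and 274 (miR200b_mimic) and 202 and 220.5 (miR92b_inhibitor), and the mixed group stood at 354 and 393. Neither miRcontrol library reached any library of the other groups, and the 5 groups did not overlap. The log2 rise over miRcontrol was 1.42 ± 0.05 (SE) in miR3124_mimic (adjusted p = 4.19e-28), 1.22 ± 0.05 in miR200b_mimic (adjusted p = 3.41e-25), 0.89 ± 0.05 in miR92b_inhibitor (adjusted p = 2.86e-19) and 1.71 ± 0.05 in the mixed group (adjusted p = 2.67e-31), a fold of 3.28 in the last. All 4 comparisons use the same 2 miRcontrol libraries. HMGA2 was also higher in the mixed group than in miR3124_mimic by 0.30 ± 0.04, than in miR200b_mimic by 0.49 ± 0.05 and than in miR92b_inhibitor by 0.82 ± 0.05 (adjusted p = 1.98e-07, 1.22e-12 and 3.32e-20).

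HMGA1 (chr6:34236873-34246231, plus strand), its relative with broader expression and 1 let-7 word, also rose in all 4 groups. Levels were 976 and 952 CPM in miRcontrol. With single agents the values were 1068 and 1087 (miR3124_mimic), 1420 and 1485 (miR200b_mimic) and 1129.5 and 1129.3 (miR92b_inhibitor), and the mixed group stood at 1474 and 1436. The miR200b_mimic and mixed libraries overlapped each other and stood above the rest. The log2 rise was 0.59 ± 0.03 in miR200b_mimic and in the mixed group (adjusted p = 6.08e-20 and 4.14e-20), 0.23 ± 0.03 in miR92b_inhibitor (adjusted p = 3.13e-07) and 0.16 ± 0.03 in miR3124_mimic (adjusted p = 6.46e-05). Between the mixed group and miR200b_mimic the difference was 0.00 ± 0.03 (adjusted p = 0.961).

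HMGB3 (chrX:150980509-150990775, plus strand), an HMGB protein of embryonic and stem cells, fell in 3 groups. It measured 149 and 158 CPM in miRcontrol. Under single agents it stood at 149 and 159 (miR3124_mimic), 97.4 and 87.3 (miR200b_mimic) and 107 and 100.4 (miR92b_inhibitor), and the mixed group stood at 92.1 and 87.2. The libraries fell into a higher set of 4 (miRcontrol and miR3124_mimic) and a lower set of 6. The fall was 0.74 ± 0.05 in miR200b_mimic, 0.57 ± 0.05 in miR92b_inhibitor and 0.77 ± 0.05 in the mixed group on the log2 scale (adjusted p = 8.67e-17, 4.89e-13 and 6.94e-18), and the difference in miR3124_mimic was 0.01 ± 0.05 (adjusted p = 0.91). In the mixed group HMGB3 was lower than in miR3124_mimic by 0.78 ± 0.05 and than in miR92b_inhibitor by 0.21 ± 0.05 (adjusted p = 5.09e-18 and 0.00107), and differed from miR200b_mimic by -0.04 ± 0.05 (adjusted p = 0.62).

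Among the 595 tested genes with the miR-200b-3p word followed by A, of which HMGB3 is 1, 41% were lower and 15% higher in miR200b_mimic, and the log2 fold change of HMGB3 was the 63rd lowest. In miR92b_inhibitor 18.2% of these genes were lower and 21.3% higher, and HMGB3 ranked 20th from the lowest. Over all genes tested the shares were 19.1% lower and 21.4% higher in miR200b_mimic, and 18.2% lower and 17.5% higher in miR92b_inhibitor. HMGB3 held no word for either arm of miR-92b. The 1404 genes with the miR-92b-3p word were higher in 18.3% and lower in 22.4% of cases in miR92b_inhibitor. The 457 genes with the miR-92b-5p word were higher in 13.6% and lower in 32.6% of cases there, with a median log2 fold change of -0.10. These are descriptions of the word groups, with no test.

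HMGB2 (chr4:173331695-173335125, minus strand), the HMGB protein of dividing cells, was lower than in miRcontrol in every other group. It was at 257 and 246.5 CPM in miRcontrol. Single agents put it at 174 and 189 (miR3124_mimic), 161 and 159 (miR200b_mimic) and 221 and 203 (miR92b_inhibitor), and the mixed group stood at 169 and 164. Both miRcontrol libraries were above all 8 others. The log2 fall was 0.47 ± 0.04, 0.66 ± 0.04, 0.25 ± 0.04 and 0.60 ± 0.04 in that order (adjusted p = 5.24e-13, 3.71e-17, 5.48e-06 and 3.58e-16). MKI67, a protein of cycling cells, also fell in these groups, by 1.24, 0.74, 0.67 and 1.05 on the log2 scale (adjusted p = 4.66e-32, 2.10e-23, 3.43e-21 and 4.53e-29). Its fall was largest in miR3124_mimic and that of HMGB2 in miR200b_mimic, so the direction was shared but not the order. The part of MKI67 in the result was not tested. HMGB2 in the mixed group differed from miR3124_mimic by -0.13 ± 0.04 (adjusted p = 0.0146), a call that was lost without miR3124_mimic replicate 2 (adjusted p = 0.392, log2 -0.06) or without mixed group replicate 2 (0.133), within a range over all alternatives of 0.00423 to 0.392.

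HMGB1 (chr13:30456704-30617597, minus strand), the abundant HMGB protein that also acts outside the cell as an alarm signal, changed by at most 0.20 on the log2 scale against miRcontrol. Its levels were 344 and 343 CPM in miRcontrol. Values with single agents were 317 and 329 (miR3124_mimic), 309.9 and 289 (miR200b_mimic) and 346 and 322 (miR92b_inhibitor), and the mixed group stood at 304 and 317. The miR92b_inhibitor libraries lay on both sides of the controls, and the 6 libraries of miR3124_mimic, miR200b_mimic and the mixed group lay below them. The change was -0.20 ± 0.04 in miR200b_mimic (adjusted p = 5.71e-05) and -0.14 ± 0.04 in the mixed group (adjusted p = 0.00266), the latter lost without mixed group replicate 1 (0.0756, the highest of the alternatives, which began at 0.000429). It was -0.09 ± 0.04 in miR3124_mimic (adjusted p = 0.0577), where 4 of 10 alternatives called it (0.0228 to 0.311), and -0.04 ± 0.04 in miR92b_inhibitor (adjusted p = 0.45). HMGB1 is uncertain to this extent: 48 symbols named as its pseudogene copies held counts equal to 8.09% to 10.2% of its own, and the rule by which the authors' counting split shared reads is not given in the sources used here.

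IGF2BP3 (chr7:23310209-23470467, minus strand) rose by 0.99 ± 0.05 in miR3124_mimic on the log2 scale (adjusted p = 3.12e-23), a fold of 1.98. It measured 101 and 100.4 CPM in miRcontrol. The single agents left it at 202 and 198 (miR3124_mimic), 118 and 116 (miR200b_mimic) and 118 and 109 (miR92b_inhibitor), and the mixed group stood at 123 and 133. Both miR3124_mimic libraries stood well above the other 8. The rise was 0.34 ± 0.05 in the mixed group (adjusted p = 5.29e-08), 0.22 ± 0.05 in miR200b_mimic (adjusted p = 0.000317) and 0.17 ± 0.05 in miR92b_inhibitor (adjusted p = 0.00415), the last lost without miR92b_inhibitor replicate 1 (0.151, in a range of 0.00219 to 0.151). The mixed group was below miR3124_mimic by 0.64 ± 0.04 (adjusted p = 7.92e-17). Its excess over miR200b_mimic, 0.13 ± 0.05 (adjusted p = 0.0294), was called under 5 of 10 alternatives (0.00667 to 0.47) and was lost without either library of miR200b_mimic and without mixed group replicate 2 (log2 0.06), under DESeq2 and with no filter.

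IGF2BP1 (chr17:48997412-49055650, plus strand) rose by 0.80 ± 0.05 in miR200b_mimic (adjusted p = 3.50e-19), although its 3′UTR holds a miR-200b-3p word followed by G. It stood at 84.4 and 80.4 CPM in miRcontrol. For single agents the levels were 82.6 and 79.5 (miR3124_mimic), 143 and 145 (miR200b_mimic) and 78.4 and 78.0 (miR92b_inhibitor), and the mixed group stood at 91.7 and 95.6. The miR200b_mimic libraries were above all others, and miRcontrol and miR3124_mimic overlapped. The difference was -0.03 ± 0.05 in miR3124_mimic and -0.08 ± 0.05 in miR92b_inhibitor (adjusted p = 0.707 and 0.248), and the rise in the mixed group was 0.18 ± 0.05 (adjusted p = 0.00175), lost without miRcontrol replicate 2 (0.0541, in a range of 0.000645 to 0.0541). The mixed group lay below miR200b_mimic by 0.62 ± 0.05 (adjusted p = 2.32e-15). It lay above miR3124_mimic by 0.21 ± 0.05 and above miR92b_inhibitor by 0.26 ± 0.05 (adjusted p = 0.000385 and 2.21e-05).

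IGF2BP2 (chr3:185643739-185825056, minus strand), the IGF2BP gene that adult tissues keep, moved by smaller steps. It was at 216 and 209.9 CPM in miRcontrol. With a single agent it measured 232 and 222 (miR3124_mimic), 268 and 264 (miR200b_mimic) and 244 and 242 (miR92b_inhibitor), and the mixed group stood at 268 and 257. All 8 other libraries were above both controls. The rise was 0.32 ± 0.04 in miR200b_mimic, 0.31 ± 0.04 in the mixed group and 0.19 ± 0.04 in miR92b_inhibitor (adjusted p = 3.33e-09, 7.59e-09 and 0.000134). In miR3124_mimic the difference of 0.09 ± 0.04 passed narrowly (adjusted p = 0.0434) and in 4 of 10 alternatives (0.00716 to 0.333). It was lost under edgeR's TMM, DESeq2, no filter, and without miRcontrol replicate 1 or 2 or miR3124_mimic replicate 1.

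**Figure D3:**
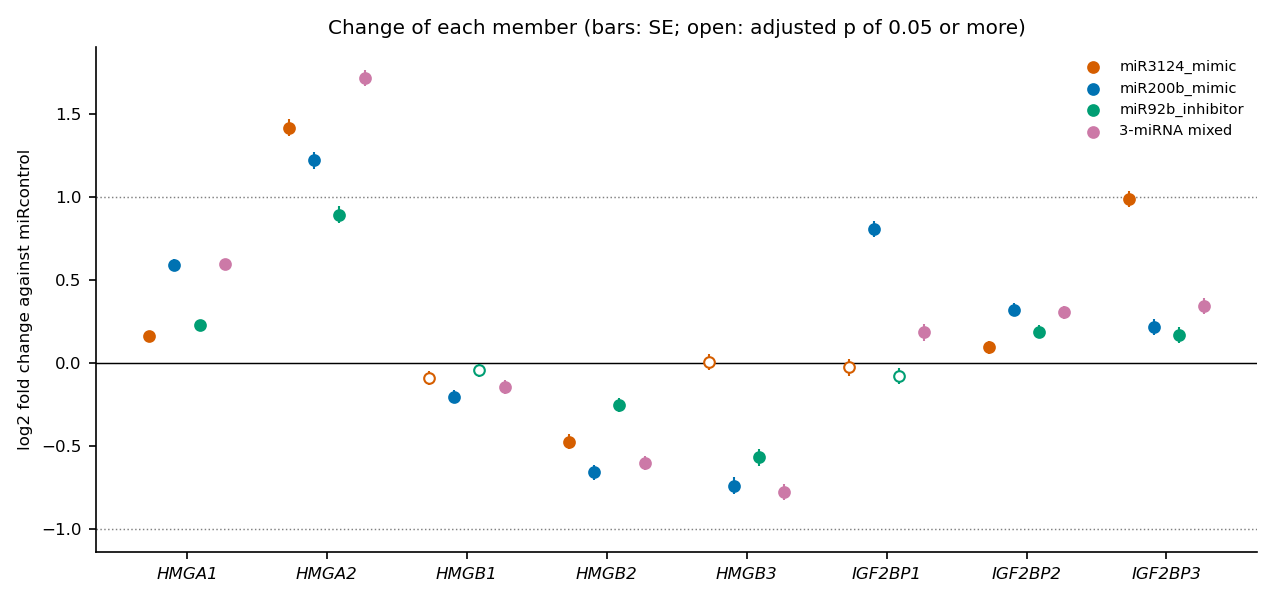
Log2 fold change against miRcontrol (y axis) of each detected member (x axis) in the 4 other groups, which share the same control libraries. Bars are SE, open points have an adjusted p of 0.05 or more, and dotted lines mark a fold of 2. HMGA2 passes a fold of 2 in 3 groups, and the HMGB genes lie at or below 0.01.

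Counted over the 8 members tested, 5 were called at an adjusted p under 0.05 in miR3124_mimic (4 higher, 1 lower), beside 51% of all genes tested, 25.7% higher and 25.3% lower. All 8 were called in miR200b_mimic (5 higher, 3 lower), beside 40.6%, 21.4% and 19.1%. In miR92b_inhibitor 6 were called (4 higher, 2 lower), beside 35.7%, 17.5% and 18.2%, and in the mixed group all 8 (5 higher, 3 lower), beside 42.7%, 21.5% and 21.1%. The members are well expressed, and calls are commoner there: of the 2584 genes at or above the lowest member's mean, 73.1%, 63.8%, 59.8% and 64.9% were called in these comparisons. The count in miR3124_mimic was near its share of such genes. It was 4 under DESeq2 and 6 in the fit of only miR3124_mimic and miRcontrol. By the rule of the study, a fold change of 2 or more and an unadjusted p below 0.05, HMGA2 alone passed in miR3124_mimic, miR200b_mimic and the mixed group, beside 8.81%, 5.7% and 5.42% of genes, and no member passed in miR92b_inhibitor, beside 2.63%. The median log2 fold change of the members was 0.05, 0.27, 0.06 and 0.24 in these groups, against 0.00, -0.01, -0.01 and 0.00 over all genes, and that in miR92b_inhibitor became 0.017 without its replicate 1 and 0.10 without its replicate 2. The median absolute log2 fold change of the members was 0.13, 0.62, 0.21 and 0.47 in the same order, against 0.29, 0.23, 0.20 and 0.23 over all genes.

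The mixed group was then set against each single agent. Against miR3124_mimic 7 members were called (4 higher, 3 lower), beside 49.1% of genes (25.3% higher, 23.8% lower), and HMGB1 was not. Against miR200b_mimic 3 were called (2 higher, 1 lower), beside 38.6% (18.2% higher, 20.4% lower): HMGA2, IGF2BP3 and IGF2BP1. Against miR92b_inhibitor all 8 were called (5 higher, 3 lower), beside 39.6% (19.7% higher, 19.9% lower). Of the 2584 genes at or above the lowest member's mean, 70.8%, 61.8% and 62.2% were called in these comparisons. The 3 calls against miR200b_mimic were fewer than the share of such genes, a gap of few genes that was not tested. In the comparison with miR92b_inhibitor HMGA1 was 0.37 ± 0.03 higher and HMGB2 0.35 ± 0.04 lower (adjusted p = 6.67e-13 and 5.29e-09). Its calls for HMGB1, IGF2BP2 and IGF2BP3 were less stable. The values were HMGB1 (-0.10 ± 0.04, adjusted p = 0.0369, 0.00972 to 0.48 over the alternatives), IGF2BP2 (0.12 ± 0.04, 0.0136, 0.00535 to 0.19) and IGF2BP3 (0.17 ± 0.05, 0.00266, 0.00104 to 0.158). HMGB1 was lost without miR92b_inhibitor replicate 1 or mixed group replicate 1 (log2 -0.05 and -0.07), under DESeq2 and in the fit of only these groups, IGF2BP2 without either of these libraries or miR92b_inhibitor replicate 2, and IGF2BP3 without miR92b_inhibitor replicate 2 or mixed group replicate 2 (log2 0.11 in both). Against miR3124_mimic, HMGA1 was 0.43 ± 0.03 and IGF2BP2 0.21 ± 0.04 higher (adjusted p = 2.21e-15 and 1.20e-05).

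A contrast added after these comparisons had been seen set the mixed group against the sum of the 3 single effects on the log2 scale. Of the 8 members 7 departed from the sum (adjusted p under 0.05), beside 21.7% of all genes that did so in either direction. In each of the 7 the mixed group was nearer to miRcontrol than the sum. The share of all genes that were nearer was not computed. Nor was the share among genes as well expressed as the members, where calls are commoner. HMGA2 reached 1.71 where the single effects summed to 3.53, a departure of -1.81 ± 0.10 (adjusted p = 3.56e-19). IGF2BP3 reached 0.34 against 1.37 (departure -1.03 ± 0.10, adjusted p = 8.93e-12), and HMGB2 -0.60 against -1.38 (0.78 ± 0.09, adjusted p = 1.08e-09). HMGB3, IGF2BP1, HMGA1 and IGF2BP2 departed by 0.52, -0.52, -0.39 and -0.30 (adjusted p = 6.50e-05, 7.46e-05, 1.43e-05 and 0.00377), and HMGB1 by 0.19 ± 0.08 (adjusted p = 0.088). All the single effects are measured against the same controls. A shift of the miRcontrol libraries alone would therefore enter the sum 3 times and the mixed group once. The amount of each agent in the mixed group is not given either. Such a shift, a smaller dose of each agent and a response that does not add cannot be told apart.

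**Figure D4:**
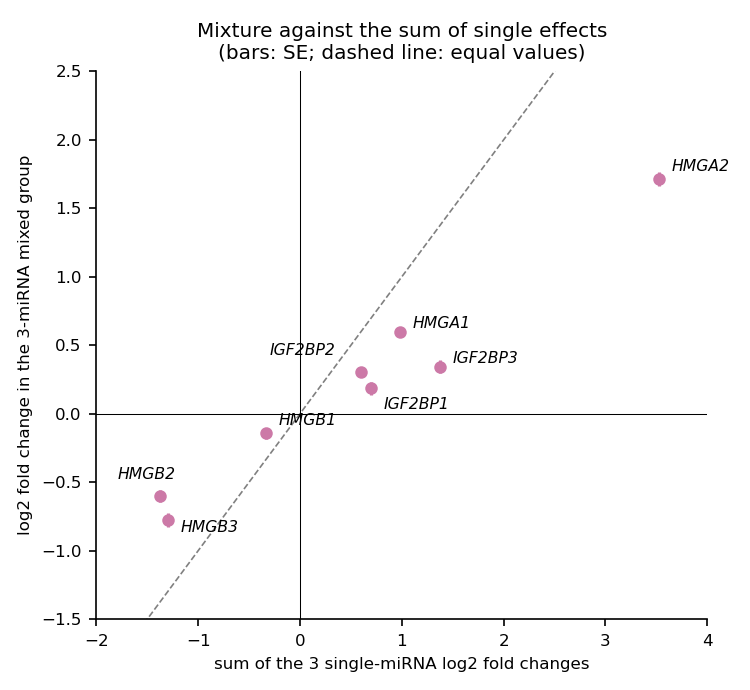
Log2 fold change in the 3-miRNA mixed group (y axis, bars are SE) against the sum of the 3 single log2 fold changes (x axis) for the 8 detected members. The dashed line marks equal values. HMGA2 lies farthest from the line, at 1.71 against 3.53.

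The other genes of the let-7 pathway were counted from lists. Of 34 tested let-7 target genes that are not members, 17 rose and 7 fell in miR3124_mimic. In the same order, 17 and 6 did so for miR200b_mimic, 9 and 6 for miR92b_inhibitor and 14 and 9 for the mixed group. Their median log2 fold change was 0.09, 0.19, 0.05 and 0.10 in the 4 groups. Beside these counts, 25.7% of all genes tested were higher and 25.3% lower in miR3124_mimic, and 21.4% and 19.1% in miR200b_mimic. In miR92b_inhibitor these all-gene shares were 17.5% and 18.2%, and in the mixed group 21.5% and 21.1%. They hold for every list below. CCND2, a G1 cyclin, rose by 2.05, 1.49 and 2.24 on the log2 scale in miR3124_mimic, miR200b_mimic and the mixed group (adjusted p = 1.31e-12, 6.91e-08 and 4.73e-14). CDK6, its kinase partner, rose by 1.27 in miR200b_mimic and 1.45 in the mixed group, and ARID3B, a DNA-binding protein, by 1.63 and 0.99. In miR3124_mimic E2F5 rose by 1.55 from a mean level of 1.06 CPM over all libraries, and RRM2, a ribonucleotide reductase subunit, fell by 1.32. In miR92b_inhibitor PLAGL1, a zinc finger protein, fell by 1.10, while LIMD2 and PBX3 rose by 0.43 and 0.31. Of the 1225 tested genes with a let-7 word, 38.1% were higher and 22% lower in miR3124_mimic. The shares were 30.9% and 20.4% for miR200b_mimic, 18.4% and 21.1% for miR92b_inhibitor and 29.7% and 21.6% for the mixed group. This tilt was not particular to the let-7 word. For the miR-92b-3p word the shares were 37.3% and 24.9% in miR3124_mimic, 29.5% and 24.2% in miR200b_mimic and 28.5% and 24.6% in the mixed group. In miR3124_mimic the miR-200b-3p word had 36.2% and 25.7%, while the words of miR-92b-5p (27.6% and 37.4%) and miR-3124-5p (11% and 61.6%) went the other way. Of the 10 genes with at least 4 let-7 words, which include the members HMGA2 and IGF2BP1, 7 were higher and 2 lower in miR3124_mimic. Counts in the same order were 5 and 1 for miR200b_mimic, 2 and 1 for miR92b_inhibitor and 6 and 1 for the mixed group. HMGA2 had the highest fold change of the 10 in each group but miR3124_mimic, where it was second to IGDCC3, and IGF2BP1 ranked 8th, 2nd, 8th and 7th. IGDCC3 was at 2.72 in miR3124_mimic (adjusted p = 0.00863) but at -3.69 without a call in miR92b_inhibitor (adjusted p = 0.178), and its level is not given here.

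Of 13 tested genes that make, process or degrade let-7, 1 rose and 8 fell in miR3124_mimic. Rises and falls were 2 and 5 for miR200b_mimic, 2 and 2 for miR92b_inhibitor and 2 and 8 for the mixed group, and the medians over the 4 groups were -0.34, -0.06, -0.01 and -0.18. DICER1, the enzyme that cuts miRNA precursors, rose in all 4, by 0.78, 1.24, 0.24 and 0.90 (adjusted p = 3.52e-21, 5.14e-29, 1.04e-05 and 1.59e-23). MIRLET7BHG, a host transcript of let-7 genes, was low at a mean of 5.82 CPM and fell by 1.005 in miR200b_mimic and 0.62 in the mixed group (adjusted p = 2.19e-05 and 0.0029). TRIM25, a ubiquitin ligase that acts with LIN28A, fell by 1.20 and DIS3L2, the exonuclease of tailed let-7 precursors, by 0.70 in miR3124_mimic, and TRIM25 rose by 0.14 in miR92b_inhibitor. MIR100HG fell by 0.35 in miR200b_mimic, DROSHA, the nuclear miRNA-processing enzyme, fell by 0.25 in miR92b_inhibitor, and HNRNPA1 fell by 0.37 in the mixed group. Each of these was lower still in miR3124_mimic, at mean CPM of 17.3, 76.9 and 656 against 27.0, 102 and 943 in miRcontrol. DROSHA was at 79.1 in the mixed group. LIN28A, the paralogue of LIN28B, did not exceed 3 counts in any library. Mature let-7 was not measured in these mRNA libraries.

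Among 17 other tested HMG-box and nucleosome-binding HMG genes, 2 rose and 8 fell in miR3124_mimic. Rises and falls counted 1 and 4 for miR200b_mimic, 3 and 3 for miR92b_inhibitor and 2 and 8 for the mixed group, with medians over the 4 groups of -0.08, -0.04, 0.05 and -0.07. HMGN2, which binds nucleosomes, fell by 2.13, 0.81, 0.27 and 1.03 in the 4 groups (adjusted p = 2.52e-37, 3.41e-22, 2.42e-07 and 4.99e-26). CIC, a repressor, and HMGN4 fell by 0.68 and 0.63 in miR3124_mimic, and CIC by 0.34 in the mixed group. HMGXB3 rose by 0.44 and UBTF, a factor of ribosomal RNA transcription, fell by 0.38 in miR200b_mimic. HMG20B fell by 0.42 in miR92b_inhibitor and 0.49 in the mixed group, and HMGXB3 rose by 0.23 in miR92b_inhibitor.

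Of 24 tested messages known as IGF2BP cargo or partners, 6 rose and 14 fell in miR3124_mimic. Rises and falls numbered 4 and 8 for miR200b_mimic, 3 and 7 for miR92b_inhibitor and 2 and 10 for the mixed group, with medians of -0.16, -0.05, 0.01 and -0.10. ACTB, the beta-actin message, fell by 2.08 in miR3124_mimic and 0.91 in the mixed group (adjusted p = 2.35e-42 and 1.65e-28). TK1, a thymidine kinase of S phase, fell by 0.54, 0.55, 0.33 and 0.74 over the 4 groups. BTRC rose by 0.54 in miR200b_mimic, and METTL3, which writes the RNA methylation that IGF2BP proteins read, fell by 0.29 in miR92b_inhibitor.

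For HMGB1, 13 receptors and partners were tested, of which 6 rose and 3 fell in miR3124_mimic. Rising and falling genes numbered 5 and 4 for miR200b_mimic, 4 and 4 for miR92b_inhibitor and 5 and 3 for the mixed group, with medians of 0.32, 0.12, 0.04 and 0.17. TLR2, a receptor at a mean of 4.47 CPM, rose by 0.93, 1.17 and 1.67 in miR3124_mimic, miR200b_mimic and the mixed group (adjusted p = 0.000544, 2.12e-05 and 2.46e-09). TLR4 rose by 0.82 in miR3124_mimic and 0.38 in miR200b_mimic, and SDC1, a surface proteoglycan, fell by 1.10 in miR3124_mimic. THBD, which binds HMGB1, rose by 0.71, 0.92 and 0.66 in miR200b_mimic, miR92b_inhibitor and the mixed group. CD24 fell by 0.53 in miR92b_inhibitor and 0.57 in the mixed group, and BECN1 rose by 0.38 in miR92b_inhibitor.

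The 18 tested HMGA partners and targets gave 4 higher and 11 lower in miR3124_mimic. The counts were 7 and 6 for miR200b_mimic, 7 and 3 for miR92b_inhibitor and 7 and 6 for the mixed group. The medians were -0.23, -0.01, 0.08 and -0.03. PLAU, the urokinase gene, rose by 1.40, 0.49 and 1.30 in miR3124_mimic, miR200b_mimic and the mixed group (adjusted p = 2.30e-32, 1.52e-14 and 6.67e-31). SNAI2, a repressor of epithelial genes, fell by 1.12 in miR3124_mimic and rose by 0.91 in miR200b_mimic. SNAI1 rose by 1.62 in miR3124_mimic and 1.47 in the mixed group, from a mean of 1.24 CPM over all libraries. IL6, at a mean of 3.01 CPM, rose by 1.37, 1.27 and 1.25 in miR200b_mimic, miR92b_inhibitor and the mixed group, and CEBPB and PLAUR rose by 0.86 and 0.68 in miR92b_inhibitor. Each of these list counts stands beside the same backgrounds as the members, and nothing particular to a list was tested.

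Over the 10 libraries and 9267 genes with a mean of at least 10 CPM, the genes whose log2 CPM followed HMGA2 most closely were ATXN1L (Pearson r = 0.992), PPP1R15B (0.983) and TMEM167A (0.977). For HMGB3 they were NUCKS1 (0.977), KANK2 (0.976) and SLF2 (0.972). The points are 5 pairs of libraries from 1 cell line, so these values describe the group means for the most part and carry no p.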

How the data were processed

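Directional poly(A)-selected RNA libraries of transfected BEAS2B cells were analysed, 2 per group. The authors trimmed reads, mapped them with TopHat to GRCh38 (per the labels) and deposited raw read counts per gene; the counting tool and its use of strand are not given in the sources used here. Of 58173 rows per library, 5771 repeat a symbol and were summed.

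All 10 libraries were fitted together with edgeR 4.0.16 (filterByExpr, RLE factors of 0.985 to 1.016, quasi-likelihood test, 5 residual degrees of freedom, no covariate; limma 3.58.1, R 4.3.3), with Benjamini-Hochberg adjustment over 14884 genes. Calls were made at an adjusted p under 0.05. In simulated data with 200 changed genes on 14525 to 14551 genes, 158 to 165 were recovered in each comparison with miRcontrol, and 7 to 10 unchanged genes were called. The changes were placed in a single group at a time, with a spread set by expression level alone. In the data 35.7% to 51% of genes were called against miRcontrol, so the simulated counts do not measure the error there. Libraries of a group differed by more than counting error (chi-square per degree of freedom 1.78 to 2.76). The replicate numbers did not pair libraries: differences within groups correlated at -0.02 to 0.07 between groups.

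All 9 members were named whatever their values. From each other list the 3 called genes with the largest change and a mean of at least 1 CPM were named per comparison, fewer where fewer were called. A gene named for 1 group may therefore have changed as much or more in another. The members and lists were chosen with earlier results of these data known. Alternatives were TMM, library totals, DESeq2 1.42.0, no filter, only the groups compared, a replicate block and leaving out each library. Seed words were first set for the longest coding transcript; the principal transcript and the contrast with summed effects were added after seeing the data.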

Additional observations from a re-analysis of the deposited data

How the results depend on the processing

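The number of members called stayed within 1.5 times its value in each of the 7 comparisons under all alternatives run. The median log2 fold change of the members moved by more than the spread between replicates with library totals only, to 0.077 in miR3124_mimic (0.05 with RLE) and to 0.055 between the mixed group and miR200b_mimic (0.03). Leaving out 1 library gave medians of 0.22 to 0.27 for the mixed group against miRcontrol, 0.017 (without miR92b_inhibitor replicate 1) to 0.10 (without replicate 2) for miR92b_inhibitor against miRcontrol, 0.11 to 0.18 for the mixed group against miR92b_inhibitor and 0.050 (without mixed group replicate 2) to 0.082 against miR3124_mimic. No called fold change of a member changed sign. Of 224 member values with a library left out, 18 fell short of the threshold and 1 newly passed, and of 336 under other settings 7 and 3 did so. The cause was not tested. With the replicate block, 5, 8, 6 and 8 members were called against miRcontrol, as without it, and no call changed. With 2 libraries per group, some small changes, such as those of HMGB1 and IGF2BP2 in miR3124_mimic (-0.09 and 0.09), passed under 4 of 10 alternatives each, while the change of HMGB1 in miR200b_mimic and of IGF2BP2 in miR200b_mimic, miR92b_inhibitor and the mixed group against miRcontrol passed under all 10.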
